A study of Caenorhabditis elegans with 8 samples.

Results

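The C-type lectin genes of Caenorhabditis elegans (clec- genes) were followed across 4 strains, each fed and fasting, on whole-animal Affymetrix arrays. The members are the probe sets to which the platform annotation gives 1 gene symbol that starts with clec-. There are 236 of these among the 22625 probe sets of the deposited table, and they stand for 220 of the 17118 genes named by a probe set with 1 symbol. This rule uses no measured value, but the family was chosen with earlier results of these data known. Another 22 probe sets name a clec gene together with a second gene and were left out.

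The 8 groups hold 1 array each. The N2 wild type and the strains daf-16(mu86), ain-1(tm3681) and drsh-1(ok369) were grown at 20 °C on Escherichia coli OP50, moved on day 2 to new plates with UV-killed OP50 (fed) or with no bacteria (fasting), and collected as adults of day 4. All groups, controls included, were on plates with FUDR, a drug that blocks progeny. DRSH-1 is Drosha, which makes the first cut of microRNA precursors, AIN-1 is a GW182-type partner of Argonaute in microRNA silencing, and DAF-16 is the FOXO factor of insulin signalling. The study asked what the microRNA machinery contributes to the response to fasting.

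A C-type lectin domain is a disulphide-bonded fold that in many animal proteins binds sugars with the help of calcium. The nematode genome holds a large expansion of genes with such domains, many of which encode secreted proteins. Their RNAs are best known for changing when the animal meets a pathogen, with different members answering different microbes, and many are made in the intestine, the tissue that takes up food and meets bacteria. The intestine also senses nutrient supply, so fasting and infection biology meet in the same cells.

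Median intensities of the arrays lay between 35.3 and 37.8. Of 77 control probe sets, 0 lay at least 2-fold from their median over the arrays on the arrays other than daf-16 fed (4) and daf-16 fasting (2). Of the 2 drsh-1 probe sets, one stood at 0.0764 (fed) and 0.0924 (fasting) times wild type in the drsh-1 strain and the other at 5.78 and 5.19 times. Of the 4 daf-16 probe sets, one stood at 0.121 and 0.129 times wild type in the daf-16 strain and the others at 0.371 to 0.763 times. The ain-1 probe sets gave ratios of 0.72 to 0.992 in the ain-1 strain and check nothing, since the place of the deletion relative to the probes is not given here. With 1 array a group, the p-values below come from limma across all probe sets and measure only the spread of the 8 arrays around a model with 1 effect for each strain and 1 for fasting, a spread that may be technical.

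Most C-type lectin probe sets were dim. The 30% of all probe sets with the lowest mean over the 8 arrays, those under an intensity of 15.81, were left out of the tests. This filter kept 70.0% of all probe sets but 44.1% of the lectins, 104 probe sets of 97 genes. The other 132 had single intensities from 5.20 to 20.3, the highest in clec-139 on the wild-type fed array. At the edge of the filter stood clec-42 just inside and clec-183 just outside. Of the 236 member probe sets, 41 had a mean over 50, 30 over 100 and 7 over 1000, and intensities of different probe sets do not order genes by amount of RNA. Probe sets marked _s_ or _x_, whose probes can match several transcripts, numbered 24 and 1 of the 104 tested, so values of near-identical lectins can be mixed.

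The brightest lectin probe sets had small values for the change with food. For clec-87 the intensities were 7876 fed and 9214 fasting for wild type, 7151 and 7208 for drsh-1, 8294 and 8539.7 for ain-1, and 8641 and 9565 for daf-16. Those of clec-88 were 4534 fed and 5636 fasting for wild type, 3677 and 3628 for drsh-1, 4694 and 5269 for ain-1, and 5323 and 4375 for daf-16, and those of clec-91 were 2647 fed and 3464 fasting for wild type, 1926 and 1987 for drsh-1, 2829.7 and 3165 for ain-1, and 3133 and 3396 for daf-16. In each of these 3 genes, fed and fasting arrays overlapped and both drsh-1 arrays were the lowest of the 8. The fitted fasting changes on the log2 scale were 0.11 ± 0.06 (adjusted p = 0.31) for clec-87, 0.04 ± 0.11 (adjusted p = 0.81) for clec-88 and 0.18 ± 0.09 (adjusted p = 0.21) for clec-91. None of the 3 passed for fasting, and clec-91 alone passed for drsh-1, at −0.63 ± 0.12 (adjusted p = 0.022). The intensities of all 236 lectin probe sets summed to 48712 fed and 41139 fasting for wild type, 31975 and 29440 for drsh-1, 47175 and 37966 for ain-1, and 48920 and 39849 for daf-16. Both drsh-1 sums were below all the others. Without clec-87, clec-88 and clec-91 the sums were 25676 fed and 12613 fasting for wild type, 12505 and 9966 for drsh-1, 23645 and 11826 for ain-1, and 22557 and 13701 for daf-16. With these 3 genes left out, the fed drsh-1 sum lay among the fasting sums of the other strains. The 3 are bright genes with small changes, and clec-63, with a mean of 2826 beside 2818 for clec-91, stayed in. Leaving them out therefore widens the relative gap between fed and fasting sums.

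Fasting lowered a set of lectins over the 4 strains and raised few. At a Benjamini-Hochberg adjusted p under 0.05, 14 of the 104 tested probe sets fell and 2 rose, which is 13.5% and 1.92%. Of all 15784 probe sets tested, 2.86% fell and 0.405% rose. Because members that are high in 1 condition only can pass a filter on the mean, the counts were also made with no filter, where 14 of 236 fell (5.93%, against 1.99% of all probe sets) and 1 rose (0.424%, against 0.284%). Among those that fell, clec-57, clec-67, clec-160 and clec-210 had a mean over the fasting arrays under the filter. The median change was near 0, at −0.05 over the 104 tested and −0.02 over all 236, beside 0.01 and −0.00 over all probe sets. Dim members weighed heavily in this. For the 30 lectins with a mean over 100 the median was −0.52, beside 0.01 over all such probe sets. For the 63 tested lectins with a mean of up to 50 it was −0.03, beside −0.00. A total of 70 tested lectins had a fitted change within 0.3 of 0. The quartiles were −0.35 and 0.04 for the tested lectins and −0.15 and 0.18 for all tested probe sets.

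The deepest fall was that of clec-41, whose product has been linked to defence against Bacillus thuringiensis. Its intensities were 1861 fed and 75.3 fasting for wild type, 1361 and 565 for drsh-1, 1718 and 77.9 for ain-1, and 1196 and 75.1 for daf-16. All 4 fasting arrays lay below all 4 fed arrays, and the fasting drsh-1 array stood well above the other fasting arrays. The fitted fall was 10.5-fold (log2 change −3.39 ± 0.50, adjusted p = 0.02). For clec-50 the values were 2219 fed and 219 fasting for wild type, 513 and 194 for drsh-1, 2029 and 242 for ain-1, and 2657 and 309 for daf-16 (log2 change −2.65 ± 0.31, adjusted p = 0.011). Those of clec-173 were 505 fed and 34.3 fasting for wild type, 191 and 114 for drsh-1, 379 and 38.5 for ain-1, and 409 and 35.2 for daf-16 (log2 change −2.49 ± 0.42, adjusted p = 0.032). In both genes the fed and fasting arrays did not overlap either, and the fed drsh-1 array was the lowest of the fed ones. Groups without overlap in this direction made up 9 of the 104 tested lectins (8.65%) and 4.81% of all probe sets.

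Several genes known from infection work were among those that fell. The gene clec-85, a target of the p38 kinase PMK-1 in the intestine, had 1827 fed and 143 fasting for wild type, 228 and 67.4 for drsh-1, 1017 and 136 for ain-1, and 986 and 241 for daf-16 (log2 change −2.45 ± 0.31, adjusted p = 0.013). The gene clec-67, counted among the effectors downstream of the same kinase, had 213 fed and 16.1 fasting for wild type, 61.3 and 17.7 for drsh-1, 153 and 15.5 for ain-1, and 188 and 13.3 for daf-16 (log2 change −2.31 ± 0.27, adjusted p = 0.011). In clec-67 all fasting arrays ended between 13.3 and 17.7, close to the level of the filter, so its fall is limited by the floor of the measurement. The gene clec-63, known to be induced by Serratia marcescens, went the same way from a far brighter signal, with 4310.2 fed and 1902 fasting for wild type, 1991 and 1109 for drsh-1, 5095 and 1932 for ain-1, and 4071 and 2202 for daf-16 (log2 change −1.07 ± 0.11, adjusted p = 0.007). In clec-63 and clec-85 the fed drsh-1 array lay inside the range of the fasting arrays, so that fed and fasting groups overlapped through this array. The gene clec-49, needed for normal resistance to Serratia marcescens, had 178 fed and 66.1 fasting for wild type, 53.2 and 37.1 for drsh-1, 160.5 and 52.9 for ain-1, and 176 and 57 for daf-16 (log2 change −1.09 ± 0.19, adjusted p = 0.034).

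Of 14 lectins tied to infection in earlier work, 12 passed the filter, 5 fell and 0 rose with limma, and the median of the 12 was −0.40. Over all lectins tested 13.5% fell and 1.92% rose, and over all probe sets 2.86% and 0.405%. The 5 were clec-41, clec-49, clec-63, clec-67 and clec-85. The member clec-65, also known from Serratia marcescens, had −0.58 ± 0.14 (adjusted p = 0.067) and clec-52 had −0.04 ± 0.15 (adjusted p = 0.89). Values of clec-4 (−0.21 ± 0.12, adjusted p = 0.29), clec-42 (−0.03 ± 0.06, adjusted p = 0.78), clec-60 (−0.06 ± 0.12, adjusted p = 0.78), clec-61 (0.40 ± 0.14, adjusted p = 0.11) and clec-71 (−0.07 ± 0.09, adjusted p = 0.66) did not pass, and clec-29 and clec-39 were too dim to be tested. The list came from knowledge of infection studies, and it was made with earlier results of these data known. The member clec-60, known for its induction by Staphylococcus aureus, lay between 17.5 and 37.8 on the 8 arrays.

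Lectins with no role given here fell as well. The intensities of clec-186 were 1533 fed and 229 fasting for wild type, 166 and 38.1 for drsh-1, 725 and 145 for ain-1, and 1098 and 201 for daf-16, and this was the fall with the smallest adjusted p (log2 change −2.24 ± 0.16, adjusted p = 0.0024). Those of clec-62 were 1220.4 fed and 352 fasting for wild type, 417 and 224 for drsh-1, 924 and 299 for ain-1, and 1270.4 and 342 for daf-16 (log2 change −1.51 ± 0.18, adjusted p = 0.011). In clec-186 the drsh-1 arrays stood below those of the other strains at both foods. Of the dimmer ones, clec-160 had −2.0 ± 0.22 (adjusted p = 0.0081) and clec-210 −1.54 ± 0.25 (adjusted p = 0.029), each from fed values of at least 22.4 to fasting values of at most 20.2. Smaller falls were those of clec-1 (−0.80 ± 0.15, adjusted p = 0.042) and clec-56 (−0.78 ± 0.12, adjusted p = 0.025). Of the 2 probe sets of clec-57, the dimmer one fell (−0.78 ± 0.15, adjusted p = 0.046) and the brighter one did not pass (−0.54 ± 0.14, adjusted p = 0.076).

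The only rises that passed were those of clec-266 and clec-145. The intensities of clec-266 were 104 fed and 606 fasting for wild type, 376 and 474 for drsh-1, 245 and 1327 for ain-1, and 278 and 1745 for daf-16 (log2 change 1.91 ± 0.37, adjusted p = 0.047). Every fasting array was above every fed array, although by little in drsh-1, and this held for 1 of the 104 tested lectins (0.962%) and 4.53% of all probe sets. The gene clec-145 was dim, with 43.1 fed and 72.2 fasting for wild type, 20.1 and 29.6 for drsh-1, 36.1 and 50.7 for ain-1, and 24.5 and 40.9 for daf-16 (log2 change 0.44 ± 0.08, adjusted p = 0.04), and its groups overlapped. Neither rise passed with a pseudocount of 64, without the mean-variance trend, without the strain block or without the arrays of wild type, ain-1 or daf-16, and that of clec-145 did not pass with no filter or quantile normalization either. Rises of clec-97 and clec-196 in 3 strains, described below, did not pass over the 4 strains.

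**Figure D1:**
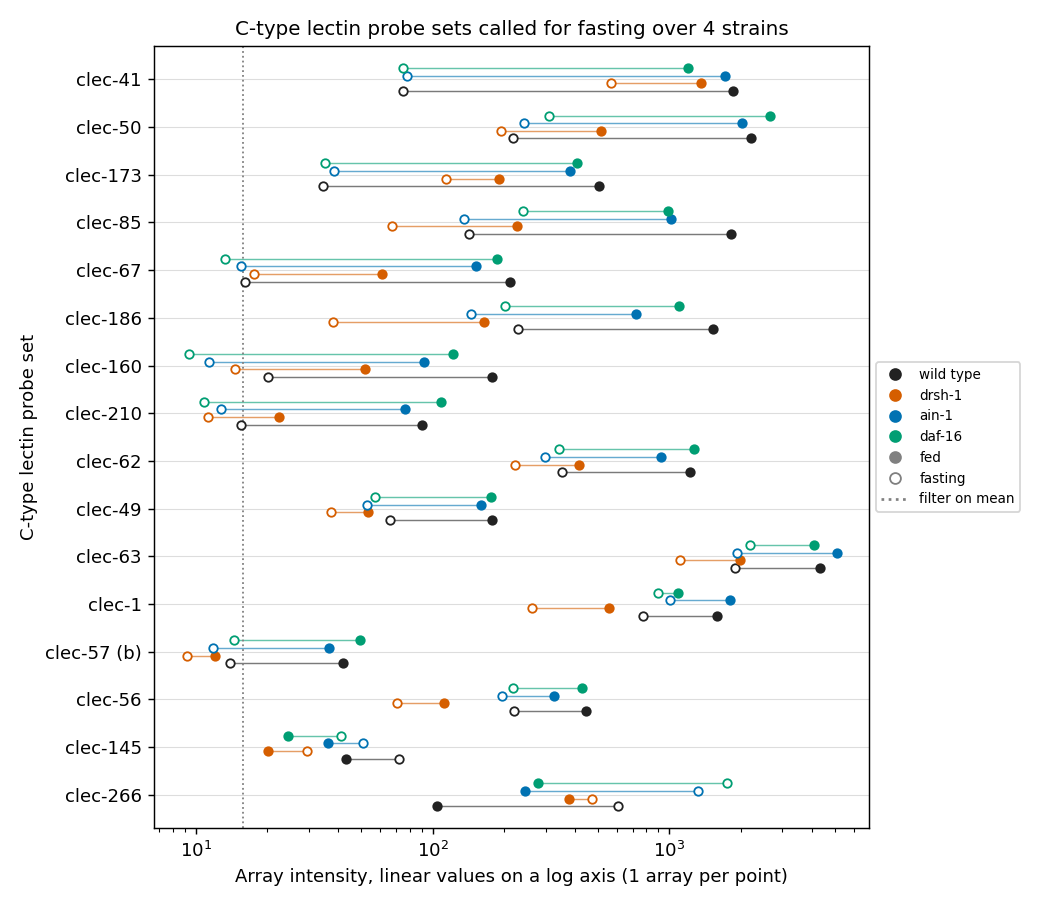
Array intensity (log axis) of the 16 C-type lectin probe sets that passed for fasting over 4 strains, with 1 filled point for the fed and 1 open point for the fasting array of each strain and a line joining them; the dotted line marks the filter at 15.81, and (b) marks the dimmer probe set of clec-57. The open points lie left of the filled ones in 14 rows and right of them in clec-145 and clec-266. The drsh-1 change is the smallest of the 4 strains in 15 of the 16, a share not counted over all called probe sets.

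The number of calls rested on which strains entered the fit. Without the drsh-1 pair of arrays 28 lectins fell and 4 rose, and the 16 calls above were all among these. Leaving out another pair left 3 falls and 0 rises each time. These were clec-85, clec-160 and clec-186 without wild type, clec-63, clec-160 and clec-186 without ain-1, and clec-1, clec-63 and clec-186 without daf-16. Of the 16 calls, only clec-186 passed in each of these 4 fits. The share of all probe sets called was not counted for these fits. Whether the swing is particular to the lectins is therefore not known.

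Intestinal markers moved in the same comparison, and their part in the lectin falls was not tested. Of 12 intestinal markers, 11 were measured and 4 fell: act-5, ifb-2, ifc-2 and ges-1. The others, from vha-6 at −1.23 to elt-7 at 0.24, did not pass. The 11 summed to 12867 fed and 9371 fasting for wild type, 7278 and 5137 for drsh-1, 10691 and 8630 for ain-1, and 12730 and 13092 for daf-16. The transcription factor gene elt-2, which defines the tissue, had 117 fed and 80 fasting for wild type, 101 and 84.6 for drsh-1, 130.2 and 96.8 for ain-1, and 123 and 95.5 for daf-16 (−0.34 ± 0.11, adjusted p = 0.1), and all 11 passed the filter on dim probe sets. In whole animals, fewer cells of a type and less RNA per cell cannot be told apart. Other tissues differed: 4 of 5 muscle and 2 of 8 epidermal markers fell, while 0 of 6 neuronal, 0 of 6 pharyngeal, 0 of 6 germline, 0 of 3 sperm and 0 of 8 oocyte markers passed. Of all probe sets tested 2.86% fell and 0.405% rose.

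Another lectin family and 2 families of intestinal immune effectors also had members that fell. Of 11 galectins, a separate lectin family that binds galactosides, 5 fell and 0 rose, with lec-9 at 1519.6 fed and 101 fasting in wild type (−3.34 ± 0.29, adjusted p = 0.0034) and lec-6 at 3411 fed and 206 fasting (−2.88 ± 0.35, adjusted p = 0.011). Of 11 lysozyme genes, whose products cut bacterial walls, 5 fell and 1 rose. Of 12 caenopores, small pore-forming peptides, 3 fell and 0 rose. These counts stand beside 2.86% lower and 0.405% higher of all probe sets tested. The 14 measured regulators of intestinal immunity, the p38 cascade genes sek-1 and pmk-1 among them, had 0 calls by limma and a median change of 0.26.

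Each strain was then read on its own pair of arrays, which gives values but no test. At least 2-fold lower in fasting were 18 of the 104 tested lectin probe sets in wild type (17.3%, against 3.36% of all probe sets), 7 in drsh-1 (6.73%, against 1.04%), 18 in ain-1 (17.3%, against 3.49%) and 17 in daf-16 (16.3%, against 5.01%). At least 2-fold higher were 3 in wild type (2.88%, against 2.58%), 0 in drsh-1 (against 0.0317%), 4 in ain-1 (3.85%, against 2.73%) and 3 in daf-16 (2.88%, against 7.17%). Across the 104 lectins, which share their arrays and are no replicates, Pearson's r between the log2 change of wild type and that of another strain was 0.90 for ain-1, 0.89 for daf-16 and 0.72 for drsh-1. Over all 15784 probe sets these were 0.89, 0.78 and 0.53. Spearman's rank correlation over the 104 lectins was lower, at 0.71 for ain-1, 0.68 for daf-16 and 0.40 for drsh-1. It was not computed over all probe sets. For the 14 probe sets that fell, the median log2 change was −2.09 in wild type, −1.83 in ain-1, −2.09 in daf-16 and −0.95 in drsh-1. The drsh-1 change was the smallest of the 4 strains in 15 of the 16 called probe sets. How often this held among all called probe sets was not counted. Over the whole array drsh-1 also had the smallest shares of 2-fold changes, so a small drsh-1 change is not particular to the lectins.

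**Figure D2:**
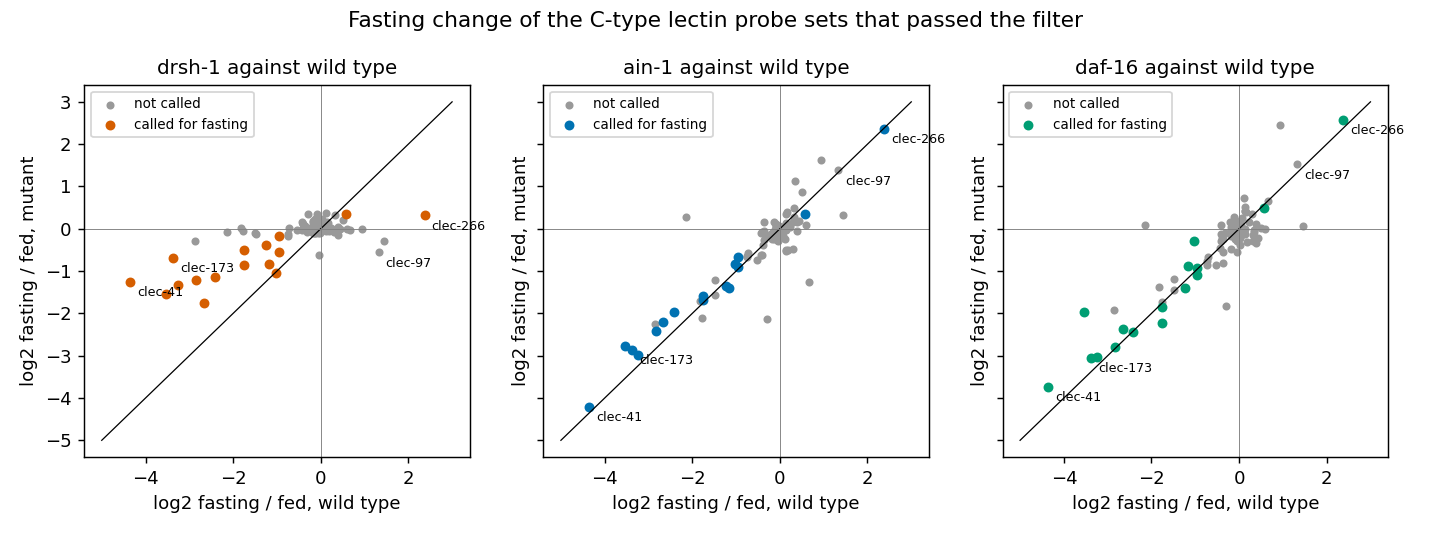
Log2 change from fed to fasting of the 104 C-type lectin probe sets that passed the filter, in wild type (horizontal) and in 1 mutant per panel (vertical), with coloured points for the 16 called over 4 strains and a line of equal change. Called points of ain-1 and daf-16 lie along the line, while most of those of drsh-1 lie between the line and 0, with clec-41 at −4.36 in wild type and −1.25 in drsh-1.

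To see where the drsh-1 animals stood, 15 lectin probe sets that were at least 2-fold lower in fasting in each of the other 3 strains were placed on a scale from the mean fed level (0) to the mean fasting level (1) of those strains. Fed drsh-1 animals stood at a median of 0.79 on this scale and fasting ones at 1.04. For the 345 probe sets of the whole array chosen the same way these were 0.59 and 1.03. The choice used the other strains and not drsh-1. Fed drsh-1 lay below the other fed arrays in 14 of the 15 lectins and in 306 of the 345. At least 2-fold lower in fasting within drsh-1 were 6 of the 15 and 136 of the 345, so the lectins' shares were close to those of the whole array.

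The 15 followed different courses in drsh-1. In the first course the fed animals already stood near the fasting level of the others. This was so for clec-86 (0.96), clec-187 (0.96), clec-265 (1.06), clec-186 (1.07) and clec-49 (1.08). The intensities of clec-265 were 273 fed and 23.8 fasting for wild type, 30.3 and 21.8 for drsh-1, 173.4 and 24 for ain-1, and 300.1 and 67 for daf-16, and those of clec-86 were 74.2 fed and 10.3 fasting for wild type, 13.9 and 12.8 for drsh-1, 114 and 14.3 for ain-1, and 79.8 and 13 for daf-16. In both genes the drsh-1 arrays lay within or near the range of the fasting arrays of the other strains, while clec-186 went on to 1.80 on the scale in fasting drsh-1 animals. In clec-86 the drsh-1 and fasting arrays all lay under the filter at 15.81, which it passed through the fed arrays of the other strains. Its positions thus compare values at the floor of the measurement.

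In the second course the fasting drsh-1 animals stayed short of the fasting level of the others. The fed position was 0.05 for clec-41 and the fasting one 0.35, and for clec-173 these were 0.36 and 0.57. The gene clec-150 has 2 probe sets, with fed positions of 0.14 in both and fasting positions of 0.12 and 0.22. Its brighter probe set had 609.7 fed and 207 fasting for wild type, 563 and 520.5 for drsh-1, 576 and 242 for ain-1, and 742 and 318 for daf-16, and its other one 619.9 fed and 164 fasting for wild type, 533 and 546 for drsh-1, 565 and 162 for ain-1, and 698 and 258 for daf-16. Both were near their fed level in fasting drsh-1 animals and lower by more than 2-fold in fasting animals of the other strains. This gene was picked out after its values were seen. Between these courses lay clec-160 (0.47 fed, 0.97 fasting), clec-67 (0.51 and 0.95) and clec-50 (0.69 and 1.12). So did clec-210 (0.79 and 1.05), clec-62 (0.81 and 1.31) and clec-85 (0.85 and 1.41), with fed positions nearer to those of the first course.

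Of the 2 lectins at least 2-fold higher in fasting in each of the other 3 strains, clec-266 and clec-97, 0 were 2-fold higher in drsh-1, as against 3 of the 234 such probe sets of the whole array. The values of clec-97 were 115 fed and 311 fasting for wild type, 120.3 and 76.2 for drsh-1, 93.7 and 269 for ain-1, and 152 and 469 for daf-16, and those of clec-196 were 42.1 fed and 95.6 fasting for wild type, 54.4 and 54.1 for drsh-1, 52.3 and 194 for ain-1, and 69 and 447 for daf-16. In wild type, ain-1 and daf-16 both genes were higher in fasting, while drsh-1 had a log2 change of −0.56 in clec-97 and −0.01 in clec-196. Over 4 strains the changes were 0.92 ± 0.35 (adjusted p = 0.14) for clec-97 and 1.25 ± 0.36 (adjusted p = 0.087) for clec-196. For clec-266 the drsh-1 change was 0.32, against 2.37 in wild type, 2.36 in ain-1 and 2.58 in daf-16. The fed level of clec-266 in drsh-1, 376, was already above the fed levels of the other strains.

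A test of the difference in response itself set the change of 1 strain against that of the other 3, with 2 residual degrees of freedom. For drsh-1 0 of 104 lectins passed with limma, beside 0 of all 15784 probe sets. The smallest adjusted p among the lectins was 0.13, a value shared by several members. At an unadjusted p under 0.05 there were 27 (26%, against 13.6% of all probe sets). The differences with the largest sizes were clec-41 at 2.86 ± 0.31 (unadjusted p = 8.8e-05, adjusted p = 0.13), clec-173 at 2.42 ± 0.29 (unadjusted p = 0.00018, adjusted p = 0.13), clec-266 at −2.12 ± 0.23 (unadjusted p = 9.2e-05, adjusted p = 0.13), clec-265 at 2.05 ± 0.38 (unadjusted p = 0.0017, adjusted p = 0.19) and clec-97 at −1.97 ± 0.25 (unadjusted p = 0.00021, adjusted p = 0.13). For ain-1 there were 0 calls and 6 unadjusted (5.77%, against 1.1%), and for daf-16 0 calls and 7 unadjusted (6.73%, against 14.5%). Over all 15784 probe sets these tests for ain-1 and daf-16 also gave 0 calls. A smaller fasting response of drsh-1 lectins is thus a pattern of the values and did not pass a test of its own. Since this test called no probe set of the array, the lack of calls says nothing particular about the lectins.

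The drsh-1 animals also differed from wild type in level, and in the lectins this was mostly a loss. With food as a block, 19 of the 104 tested probe sets, of 18 genes, were lower in drsh-1 (18.3%) and 2, both of clec-10, were higher (1.92%). Over all probe sets the balance ran the other way, with 3.74% lower and 8.04% higher. With no filter 20 of 236 were lower (8.47%, against 2.47%) and 3 higher (1.27%, against 5.62%). The median difference was −0.21 over the lectins tested, −0.91 over the 30 with a mean over 100, and −0.00 over all probe sets tested. Both drsh-1 arrays lay below the other 6 arrays in 31 lectin probe sets (29.8%, against 14.5% of all) and above them in 7 (6.73%, against 18.1%). Read within 1 food, fed drsh-1 animals were at least 2-fold below fed wild type in 27 (26%, against 3.36%) and above in 2 (1.92%, against 4.61%). Fasting drsh-1 animals were below fasting wild type in 16 (15.4%, against 3.78%) and above in 5 (4.81%, against 3.82%), the latter being clec-5, clec-41, clec-173 and both probe sets of clec-150. In the drsh-1 arrays 2 of 11 intestinal markers passed as lower (asp-1 and ges-1) and 0 as higher. The others, from cpr-1 at −2.06 to act-5 at 0.90, did not pass. Of the muscle markers 2 of 5 were lower and 1 higher. The part of these markers in the lectin difference was not tested.

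The lowest value was that of clec-52, known from infection by Staphylococcus aureus. Its intensities were 412 fed and 544 fasting for wild type, 20.3 and 16.7 for drsh-1, 368 and 353 for ain-1, and 262 and 205 for daf-16 (log2 difference −3.83 ± 0.21, adjusted p = 0.00047). Both drsh-1 arrays stood close to the filter while the other 6 lay at 204.6 or above. Its direct neighbour on chromosome IV, clec-51, had 218 fed and 159 fasting for wild type, 24.6 and 28.2 for drsh-1, 160.1 and 99.1 for ain-1, and 142.3 and 129.6 for daf-16 (log2 difference −2.26 ± 0.21, adjusted p = 0.0027). Neither gene passed for fasting, so that they differed between strains in level with no detected effect of food.

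The adjacent genes clec-222 and clec-223 on chromosome V were near the floor in drsh-1. Values of clec-222 were 160.1 fed and 121 fasting for wild type, 7.12 and 7.11 for drsh-1, 87.5 and 98.7 for ain-1, and 130.5 and 67 for daf-16 (log2 difference −2.75 ± 0.24, adjusted p = 0.0022), and those of clec-223 were 115 fed and 151 fasting for wild type, 14.6 and 13.7 for drsh-1, 53.7 and 138 for ain-1, and 93.6 and 87.4 for daf-16 (log2 difference −2.30 ± 0.30, adjusted p = 0.0069). With both drsh-1 arrays under the filter, these sizes are limited by the pseudocount. The same was so for clec-190 (110.5 and 60.6 in wild type against 12 and 12.2 in drsh-1, log2 difference −1.81 ± 0.20, adjusted p = 0.0041) and clec-178 (49.5 and 64.8 in wild type against 15.4 and 13.7 in drsh-1, log2 difference −1.25 ± 0.21, adjusted p = 0.014). In clec-222, clec-223, clec-190 and clec-178 the drsh-1 arrays did not overlap with the other 6.

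For clec-47 the intensities were 602 fed and 965 fasting for wild type, 77.9 and 75.3 for drsh-1, 857 and 352 for ain-1, and 429 and 686 for daf-16 (log2 difference −3.07 ± 0.45, adjusted p = 0.0094). Its drsh-1 arrays were the lowest, and among the other strains it was higher in fasting in wild type and daf-16 and lower in ain-1. The gene clec-186 combined both effects, at 1533 and 229 in wild type against 166 and 38.1 in drsh-1 (log2 difference −2.64 ± 0.23, adjusted p = 0.0021). So did clec-85, at 1827 and 143 in wild type against 228 and 67.4 in drsh-1 (log2 difference −1.92 ± 0.44, adjusted p = 0.038). The other genes that were lower are clec-1 (−1.49 ± 0.21, adjusted p = 0.0082), clec-48 (−1.54 ± 0.20, adjusted p = 0.0061), clec-56 (−1.65 ± 0.17, adjusted p = 0.0035), clec-62 (−1.07 ± 0.25, adjusted p = 0.041), clec-63 (−0.94 ± 0.16, adjusted p = 0.015), clec-66 (−0.97 ± 0.24, adjusted p = 0.046) and clec-145 (−0.83 ± 0.11, adjusted p = 0.0078). Both probe sets of clec-65 were lower at −1.62 ± 0.19 (adjusted p = 0.005) and −1.69 ± 0.21 (adjusted p = 0.0061), and clec-91 was given above. Like clec-186 and clec-85, the genes clec-1, clec-56, clec-62 and clec-63 also passed as lower in fasting, while clec-145 passed as higher.

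The only lectin higher in drsh-1 over both foods was clec-10. Its brighter probe set had 25.3 fed and 29.5 fasting for wild type, 60 and 65.6 for drsh-1, 31.6 and 17.5 for ain-1, and 47.6 and 42.4 for daf-16 (log2 difference 0.86 ± 0.17, adjusted p = 0.025), and the other one gave 0.84 ± 0.13 (adjusted p = 0.012). The drsh-1 arrays were the highest of the 8 for both. The largest positive difference, that of clec-5, did not pass (log2 difference 1.94 ± 0.58, adjusted p = 0.08). Its intensities were 349 fed and 280.2 fasting for wild type, 1102 and 1404 for drsh-1, 903 and 194 for ain-1, and 240.5 and 56.2 for daf-16. In this gene the log2 changes in fasting were 0.34 for drsh-1, −1.83 for daf-16, −2.13 for ain-1 and −0.30 for wild type.

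**Figure D3:**
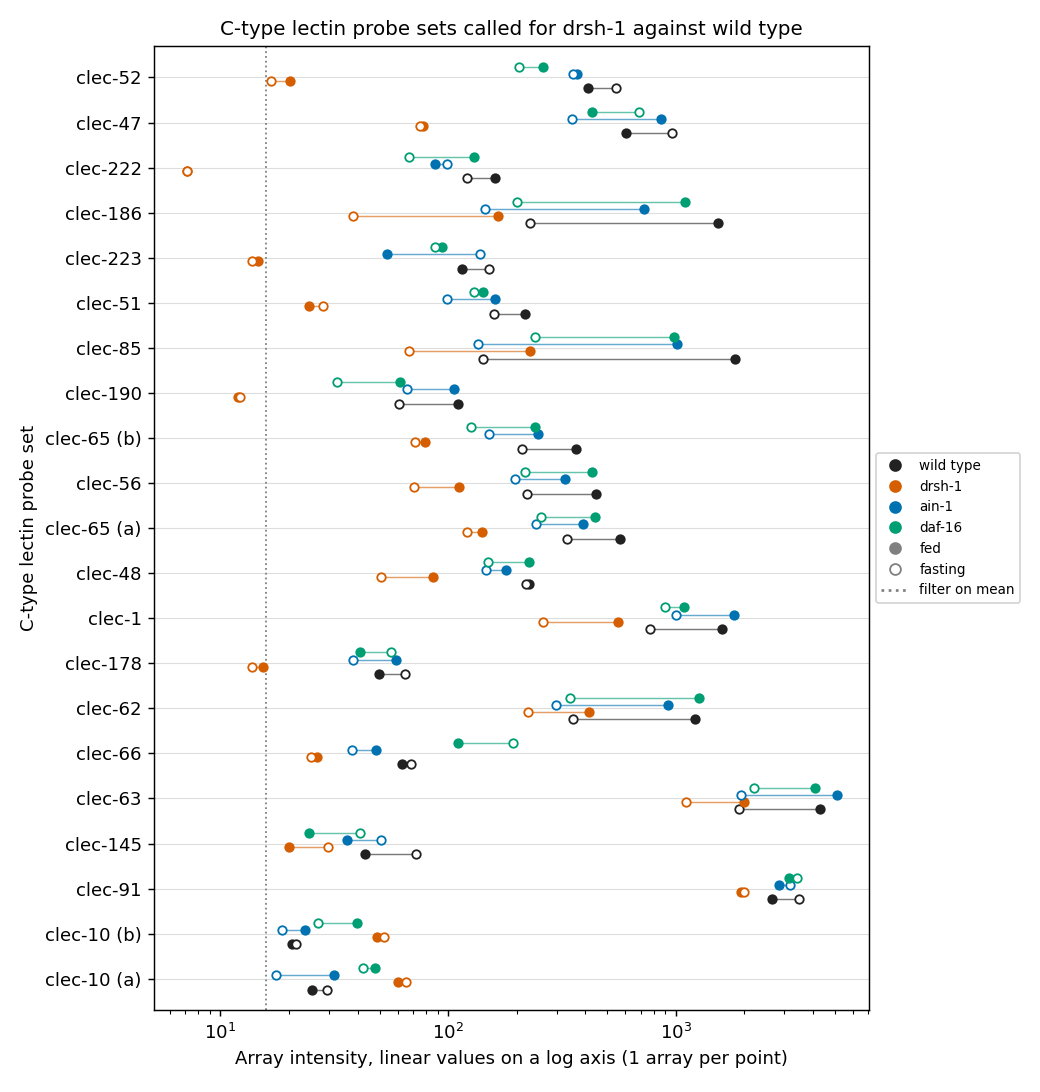
Array intensity (log axis) of the 21 C-type lectin probe sets that passed for drsh-1 against wild type, drawn as in the plot of the fasting calls; (a) and (b) mark the brighter and dimmer probe sets of clec-65 and clec-10. Both drsh-1 points lie left of all others in 14 rows, left of the others of the same food in clec-62, clec-63, clec-85, clec-145 and clec-186, and right of all others in the rows of clec-10.

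Among the 12 tested lectins tied to infection, 4 were lower in drsh-1 and 0 higher: clec-52, clec-63, clec-65 and clec-85. This stands beside 18.3% lower and 1.92% higher of all lectin probe sets tested, and 3.74% and 8.04% of all probe sets. In the same comparison 5 of 12 caenopores were lower and 1 higher, and 4 of 11 lysozyme genes were lower and 4 higher. Of the 14 regulators of intestinal immunity 3 were higher and 0 lower: vhp-1, a phosphatase that acts on the p38 kinase pathway (1.67 ± 0.23, adjusted p = 0.0078), the p38 kinase kinase gene sek-1 (1.17 ± 0.29, adjusted p = 0.049) and the bZIP factor gene zip-2 (0.99 ± 0.24, adjusted p = 0.044). The p38 kinase gene pmk-1 had 0.03 ± 0.24 (adjusted p = 0.95).

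Neither ain-1 nor daf-16 had a lectin call against wild type. For ain-1 0 of 104 passed with limma, 7 were lower and 0 higher at an unadjusted p under 0.05 (6.73% and 0%, against 2.46% and 3.39% of all probe sets). For daf-16 0 passed, 4 were lower and 6 higher unadjusted (3.85% and 5.77%, against 4.2% and 4.56%). Over all probe sets tested 0.0443% were called lower and 0.00634% higher in ain-1, and 0 in daf-16. Within 1 food, at least 2-fold below wild type in ain-1 were 2 fed (1.92%, against 0.437%) and 2 fasting (1.92%, against 0.697%), and above it 2 fed (1.92%, against 0.558%) and 1 fasting (0.962%, against 0.393%). For daf-16 these were 1 fed (0.962%, against 1%) and 3 fasting (2.88%, against 1.44%) below, and 1 fed (0.962%, against 0.19%) and 4 fasting (3.85%, against 1.85%) above. The lowest fitted values for ain-1 were those of clec-174 (−0.99 ± 0.56, adjusted p = 0.91), clec-186 (−0.84 ± 0.23, adjusted p = 0.55), clec-7 (−0.62 ± 0.16, adjusted p = 0.54) and clec-160 (−0.62 ± 0.31, adjusted p = 0.89), and the highest those of clec-266 (1.12 ± 0.52, adjusted p = 0.88), clec-196 (0.57 ± 0.51, adjusted p = 0.97) and clec-5 (0.42 ± 0.58, adjusted p = 0.98). For daf-16 the lowest were clec-5 (−1.27 ± 0.58, adjusted p = 0.61), clec-174 (−1.01 ± 0.56, adjusted p = 0.65) and clec-52 (−0.98 ± 0.21, adjusted p = 0.25), and the highest clec-266 (1.40 ± 0.52, adjusted p = 0.54), clec-196 (1.3 ± 0.51, adjusted p = 0.56) and clec-66 (0.99 ± 0.24, adjusted p = 0.31). The 3 mutant comparisons share the wild-type arrays. This touches clec-174, whose values were 381 fed and 73.4 fasting for wild type, 69.3 and 65.1 for drsh-1, 70.5 and 88.3 for ain-1, and 74.3 and 80.7 for daf-16, since only the wild-type fed array stood high.

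**Figure D4:**
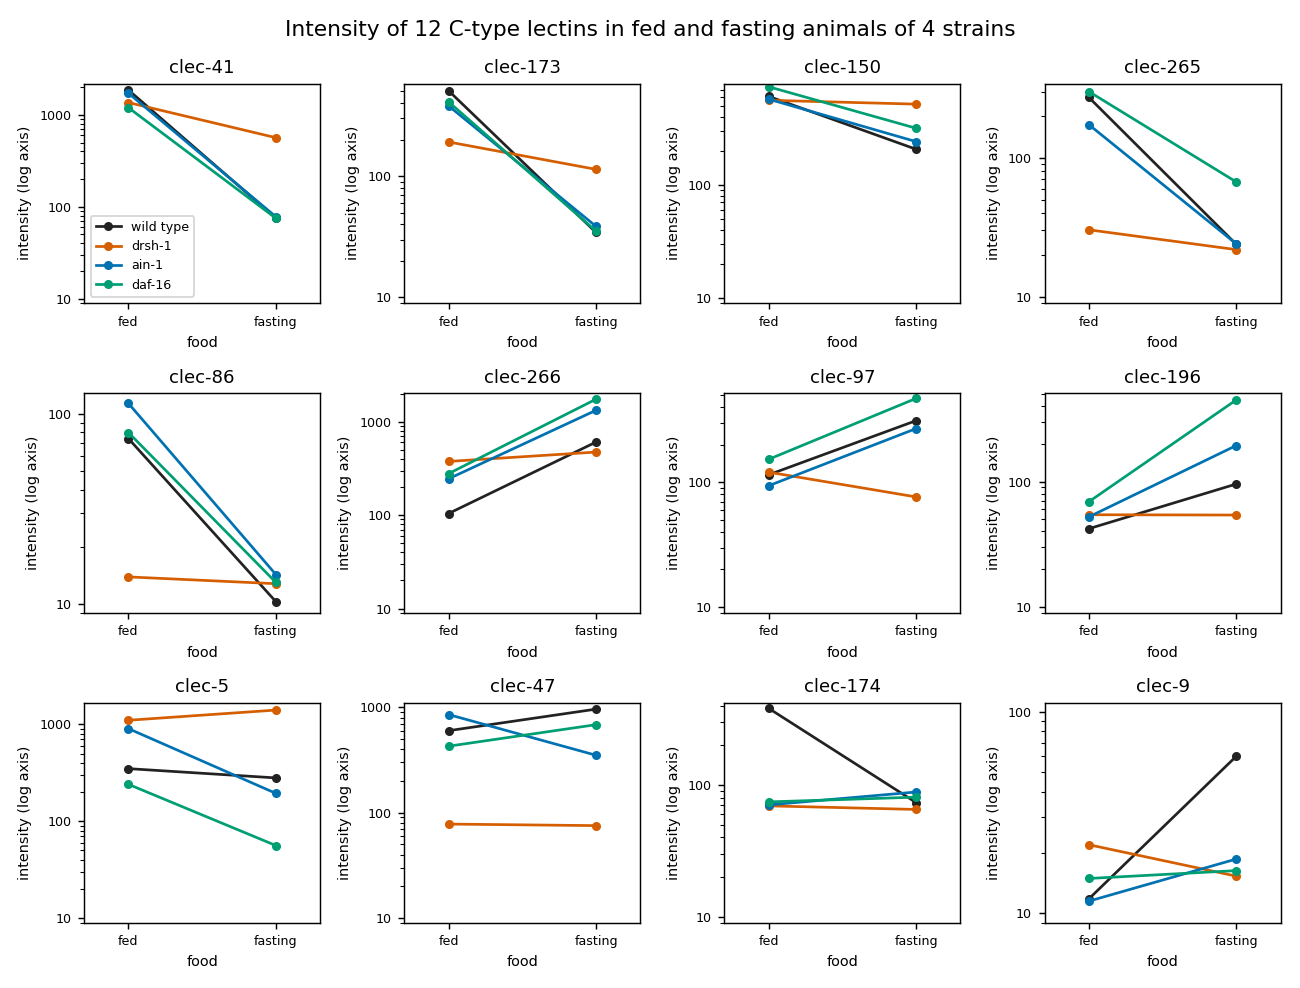
Intensity (log axis) of 12 C-type lectins fed and fasting, with 1 line per strain and 1 array per point. The drsh-1 line is flat or shallower than the others in the panels of clec-41, clec-173, clec-150, clec-265, clec-86, clec-266 and clec-196. In clec-41 it still falls, from 1361 to 565. The drsh-1 line goes down in clec-97 where the others go up, while clec-174 and clec-9 each have 1 wild-type array apart from the rest.

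Many of these genes lie side by side. In the RefSeq annotation of assembly WBcel235, used here for names and neighbours only, 164 of 264 clec genes stand in 51 runs in which consecutive clec genes have at most 1 other gene between them. All 220 member genes were matched by Entrez number, 18 of them annotated as pseudogenes. By chromosome there were 31 member genes on I, 47 on II, 17 on III, 45 on IV, 77 on V and 3 on X. Of the 97 tested genes, 58 lie in a run, as do 10 of the 16 genes called for fasting.

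Neighbours had like values in some runs and unlike ones in others. In the run of clec-62 to clec-66 on chromosome II, clec-62 and clec-63 fell in fasting, and clec-65 and clec-66 had −0.58 ± 0.14 (adjusted p = 0.067) and 0.13 ± 0.17 (adjusted p = 0.63), while all 4 were lower in drsh-1. The pair clec-49 and clec-50 on chromosome V both fell in fasting, and in the pair clec-186 and clec-187 on chromosome IV the second had −1.16 ± 0.25 (adjusted p = 0.058). In the run of 13 genes on chromosome IV that starts with clec-67, clec-67 fell and the other tested ones, clec-70, clec-71, clec-74 and clec-174, had changes of 0.15, −0.07, −0.28 and −0.46. In the run of clec-93 to clec-99 on chromosome I, clec-97 had 0.92 and the other 5 tested members lay between −0.05 and 0.08. The longest run, 15 genes on chromosome V, had 3 tested members with changes between −0.09 and −0.00. Probe sets of neighbouring near-identical genes can share signal, and their part in a common course was not tested.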

How the data were processed

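RNA of whole animals, extracted with Trizol, was biotin-labelled with a 3′ IVT kit for Affymetrix arrays, per the labels' protocols. The authors deposited 1 linear intensity per probe set and array, and their summarisation, normalization and background correction are not given in the sources used here. They were used as deposited. Control probe sets were left out, values were transformed as log2(intensity + 16), which understates changes of dim genes, and the lowest 30% by mean were left out. Strain plus food was fitted over all 8 arrays with limma 3.58.1 in R 4.3.3 (eBayes with a mean-variance trend, 3 residual degrees of freedom, prior 3.701), with Benjamini-Hochberg adjustment over 15784 probe sets and calls at 0.05. Errors beside fitted values are standard errors. The fit was also run on simulated data with independent noise and an effect added to a single comparison at a time. Those data held no difference in response between strains, so they do not check calls where strains respond differently. Pairs of arrays were counted at 2-fold with no test. Tables were made with Python 3.11.15.

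Named genes were the called members, the largest changes per strain and mutant, the brightest 5, those whose drsh-1 response stood farthest apart and a list tied to infection. A gene is described by its brightest probe set. The members and lists were chosen with earlier results of these data known. Alternatives were no filter or 50%, quantile normalization, a pseudocount of 1 or 64, no trend, arrayWeights, no strain or food block, leaving out strain pairs and 3-fold counts.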

Additional observations from a re-analysis of the deposited data

Results flagged for a closer look

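On the log2(intensity + 16) scale, clec-47 alone of the tested lectins differed between fed and fasting by at least 1.5-fold in opposite directions in 2 strains, and clec-97, at −0.56 in drsh-1, came just short of it. The share of all probe sets that did so was not counted. In clec-47 the log2 change in fasting was 0.67 in wild type and −1.25 in ain-1, from 602 fed and 965 fasting for wild type, 77.9 and 75.3 for drsh-1, 857 and 352 for ain-1, and 429 and 686 for daf-16. With 1 array a group the difference between these 2 strains was not tested. The change in ain-1 against the mean of the other 3 strains differed by −1.68 ± 0.40 (limma, unadjusted p = 0.0057, adjusted p = 1).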

How the results depend on the processing

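Counts of lectins called for fasting moved most. Except for fasting and drsh-1 with no filter, the share of all probe sets called was not counted for these alternatives. The 14 falls and 2 rises became 37 and 11 with arrayWeights, 9 and 0 without the mean-variance trend, and 5 and 0 without the strain block. Rises were 1 with no filter or quantile normalization and 0 with a pseudocount of 64. Leaving out 1 strain pair gave 3 to 28 falls and 0 to 4 rises. For drsh-1 the 19 lower and 2 higher became 8 and 1 without the food block, and the higher ones were 1 with the 50% filter or arrayWeights. Leaving out another mutant gave 15 to 21 lower and 2 to 3 higher. For ain-1 arrayWeights gave 2 lower (clec-7 and clec-186), and the counts of daf-16 stayed at 0 under the alternatives run. At 3-fold, 1 rise was counted for wild type, 2 for ain-1, and 1 fall for drsh-1, where a pseudocount of 64 gave 4. Of the 16 members called for fasting, clec-10, clec-47, clec-52, clec-186, clec-222 and clec-223 for drsh-1, and the extremes named for ain-1 and daf-16 except clec-7, 0 changed direction in that comparison. Other named members were not followed one by one. With 1 array a group, a response of a single strain has no replicate check, and dim probe sets near 15.81 give only compressed changes.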

Other observations

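A total of 3 lectins had 1 array at least 2-fold above the other 7. How often this held over all probe sets was not counted. The wild-type fed array of clec-174 read 381, against 88.3 on the next highest, a ratio of 4.32, on a probe set of the _x_ class. The wild-type fasting array of clec-9 read 60.1, against 21.9. The daf-16 fasting array of clec-196 read 447, against 194. In clec-9 the log2 changes in fasting were −0.28 for drsh-1, 0.07 for daf-16, 0.33 for ain-1 and 1.45 for wild type. In clec-66 the daf-16 arrays were the highest at both foods, with 62.7 fed and 68.7 fasting for wild type, 26.6 and 24.9 for drsh-1, 48 and 37.8 for ain-1, and 110.5 and 193 for daf-16.

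Some lectins outside these groups were not called in any comparison. The intensities of clec-83 were 472 fed and 539 fasting for wild type, 422 and 405 for drsh-1, 448 and 313 for ain-1, and 424 and 340.3 for daf-16, and those of clec-104 were 70.5 fed and 61 fasting for wild type, 47.5 and 55.1 for drsh-1, 50.6 and 46.5 for ain-1, and 55.7 and 52.2 for daf-16. For clec-264 both drsh-1 arrays were the highest, with 79.7 fed and 88.7 fasting for wild type, 116 and 119.1 for drsh-1, 59.4 and 79.2 for ain-1, and 54 and 77.2 for daf-16 (log2 difference from wild type 0.42 ± 0.17, adjusted p = 0.15). The largest fasting changes above 0 within drsh-1 were those of clec-221, clec-5, clec-145 and clec-40, with log2 changes from 0.34 to 0.37.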
